A study of Rattus norvegicus with 2 samples.

Results

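The cytosolic ribosomal protein genes were examined in electron transport system (ETS) abnormal and control muscle fibers of aged rats. A probe set was taken when the platform annotation gives it a single gene symbol that begins with Rpl or Rps followed by a number, or the symbol Rplp0, Rplp1, Rplp2 or Rpsa. Mitochondrial ribosomal genes and the S6 kinases were left out. The rule found 55 probe sets for 48 genes, out of 31042 gene probe sets and 14217 genes with a name of their own. They comprised 15 genes of the small subunit (18 probe sets), 32 of the large subunit (36 probe sets) and Rplp0 of the stalk. A further 36 probe sets carry a ribosomal protein symbol together with other symbols, mostly of pseudogenes (-ps) and like-named copies. These were not members, were not assigned to any gene, and are given only as a group. Rplp1 and Rplp2 had no probe set of their own.

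The study asked which genes are expressed in fiber segments that have lost electron transport through clonal expansion of mitochondrial DNA deletions. The ETS abnormal group was 1 pool of laser-captured Vastus lateralis fibers, cytochrome C oxidase negative and hyperreactive for succinate dehydrogenase (ragged red). The control group was 1 pool of captured fibers that were positive for cytochrome C oxidase and normal for succinate dehydrogenase. Both came from F344 x BN F1 Hybrid rats with no treatment named, labelled 36 months old, although the methods give a younger age. The design notes place both populations in a single animal, and the methods speak of rats. Each pool merged sections of many fibers, so that fibers could not be compared with each other. After 2 rounds of T7 amplification the RNA of each pool was applied to 1 Affymetrix rat genome array. With 1 array per condition there was no replicate, no p-value or error was computed for any gene, and every comparison below is a description of these arrays. In captured tissue, fewer cells of a type and less RNA per cell cannot be told apart.

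Ribosomal proteins form, with the ribosomal RNAs, the small subunit that reads the messenger RNA and the large subunit that joins amino acids. A stalk on the large subunit recruits the translation factors. Their messenger RNAs are among the most abundant of most cells, muscle included, and typically begin with a C followed by a run of pyrimidines (the terminal oligopyrimidine tract), through which mTOR signaling controls their translation as a group. Some of the proteins have second roles, such as the binding of Mdm2 by Rpl5, Rpl11 and Rpl23, and a few have paralogs made in particular tissues, among them Rpl3l of striated muscle.

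Each probe set has a signal on a linear scale, and probes of different genes bind with different strength, so that an order of signals is not an order of transcript levels. As background, each array was read at 119 probe sets (110 genes) with no expected role in skeletal muscle (olfactory and vomeronasal receptors, lens crystallins, pancreatic enzymes, pituitary hormones and the like), and the 95th percentile of their signals was used. This gave 3317 for ETS abnormal and 3137 for control fibers. To be called higher in a fiber type, a probe set had to exceed background there and to be at least 2-fold above the larger of its other signal and the other array's background. Muscle transcripts were checked first. For skeletal muscle actin, Acta1, the signals were 3683 (ETS abnormal) and 2557 (control), Ckm, the muscle creatine kinase, had 2187 and 1695, and Myh4, the fast IIb myosin heavy chain, had 117.7 and 932.8. Of 51 probe sets of muscle fiber genes, 3 exceeded background in the ETS abnormal pool and 2 in the control pool, among them Tnni2, the fast troponin I (3663 and 247.9), and 1 probe set of the tropomyosin gene Tpm1 (268.9 and 5306). Of 76 probe sets for 7 other cell types (endothelial, fibroblast, leukocyte, satellite, nerve, fat and red cells), 7 exceeded background in the ETS abnormal pool and 6 in the control pool. The part of these other cell types in the values below was not tested. Among all gene probe sets, 4.7% passed the background of the ETS abnormal array and 5.95% that of the control array. The muscle fiber counts, 3 and 2 of 51, lie near these shares. By this count, muscle fiber genes were not set apart from genes at large, and the difference was not tested. The median signal of muscle fiber probe sets was 430.4 in ETS abnormal fibers, below the 821.9 of the background genes. In control fibers it was 641.2, against 567.0.

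Most ribosomal protein probe sets lay below background in both fiber populations. In ETS abnormal fibers 5 of the 55 (9.09%) were above background, where 4.7% of all gene probe sets were. In control fibers 2 (3.64%) were above it, against 5.95% of all gene probe sets. None was above background on both arrays and 48 were on neither. With shares of 4.7% and 5.95%, most of all gene probe sets also lay below both backgrounds. The overlap itself was not counted over all gene probe sets, so it is not read as a trait of the family. No member was called 2-fold higher toward either array, where 0.106% of all gene probe sets were called higher in ETS abnormal and 0.0709% in control fibers. The member signals ran from 80.5 to 4391 on the ETS abnormal array and from 62.6 to 4515 on the control array.

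**Figure D1:**
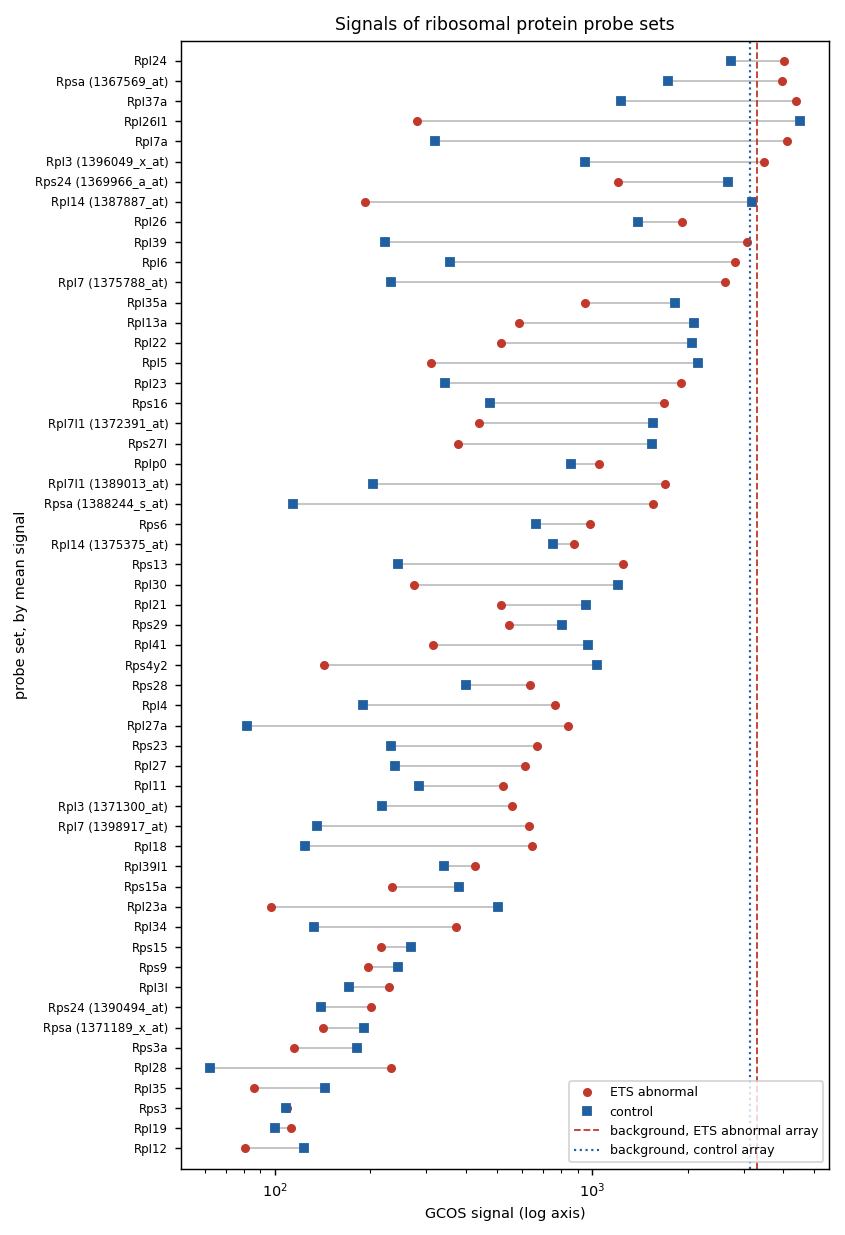
GCOS signal (log axis) of each of the 55 ribosomal protein probe sets in ETS abnormal fibers (red circles) and control fibers (blue squares), 1 array each, ordered by mean signal, with the background of each array as a vertical line. Red circles pass their line for Rpl37a, Rpl7a, Rpl24, Rpsa and Rpl3, and blue squares pass theirs for Rpl26l1 and Rpl14.

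The 5 members above background in ETS abnormal fibers were 4 proteins of the large subunit and 1 of the small. Rpl37a, a zinc-binding protein of the large subunit, had a signal of 4391 in ETS abnormal against 1230 in control fibers, at least 1.40-fold higher. Rpl7a, also of the large subunit, had 4106 and 318.7, at least 1.31-fold higher. These bounds are ratios against the control background, because the control values lay below it.

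Rpl24, which lies at the interface of the subunits, had 4036 in ETS abnormal against 2744 in control fibers, at least 1.29-fold higher. It was the only member above the 90th percentile of all gene probe sets on both arrays. The small-subunit protein Rpsa, also known as the laminin receptor precursor, had 3956 and 1733 on its brightest probe set, at least 1.26-fold higher. Rpl3, which reaches toward the peptidyl transferase center, had 3468 and 947.0 on a probe set whose sequence can match several transcripts, at least 1.11-fold higher.

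The members above background in control fibers were 2 proteins of the large subunit. Rpl26l1, a paralog of Rpl26, had a signal of 4515 in control and 281.1 in ETS abnormal fibers, at least 1.36-fold higher. Rpl14 had 3178 in control and 192.1 in ETS abnormal fibers on its brighter probe set. That control value exceeded its own background but not the background of the ETS abnormal array, so no bound is given. Bounds of this size also occurred for genes not expected in muscle. The pancreatic lipase Pnlip had 4431 in ETS abnormal against 1771 in the controls (at least 1.41-fold). The liver urate oxidase Uox had 363.0 and 6462 (at least 1.95-fold higher in control fibers).

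The annotated transcription starts of these bright members, and of Rpl39 and Rpl19 for comparison, are shown because a pyrimidine start is the sequence feature best known for this family. Each line gives the 15 bases before the start and the first 15 of the transcript, 5′ to 3′ on the transcribed strand, from RefSeq on build GRCr8. Capitals mark the run of C and T that begins exactly at the annotated start, and a line without capitals has no such run there. RefSeq's promoter table held 41 of the 48 genes, and Rpl37a was not among them.

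Rpl7a (chr3:30637121-30637150, + strand): ctctcctccagccgagcaagatggtgagtg
Rpl24 (chr11:58128391-58128420, - strand): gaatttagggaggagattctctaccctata
Rpsa (chr8:128728864-128728893, + strand): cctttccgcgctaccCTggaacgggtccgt
Rpl3 (chr7:113507976-113508005, - strand): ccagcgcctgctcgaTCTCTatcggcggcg
Rpl26l1 (chr10:17029014-17029043, - strand): aaatgtcatttccgggcctgcgcacacacc
Rpl14 (chr8:129163605-129163634, + strand): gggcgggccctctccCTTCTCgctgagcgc
Rpl39 (chrX:121195882-121195911, - strand): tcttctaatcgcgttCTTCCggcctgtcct
Rpl19 (chr10:83519049-83519078, + strand): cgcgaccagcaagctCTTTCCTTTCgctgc

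Of the 41 genes, 11 (26.8%) had a C at the annotated start followed by at least 4 pyrimidines, against 2.63% of all 33469 promoters of the table. A run of at least 7 pyrimidines within 10 bases of the start was found for 23 (56.1%), against 11.9% of all promoters. TATAA lay in the 50 bases before the start of 2 (4.88%), against 4.28%. All were searched on the transcribed strand only, and the pyrimidine motifs overlap each other. The bright and the dim members both had such starts. At the annotated start Rpl14, Rpl39 and Rpl19 have a C and a pyrimidine run, while Rpl7a and Rpl24 do not. Rpl19 was dim on both arrays, with 112.6 and 100.4. Whether the annotated starts are those used in muscle was not tested.

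Against all other transcripts the family stood near the middle of the ETS abnormal array and lower on the control array. The median member signal was 559.1 in ETS abnormal fibers (quartiles 233.1 and 1232) and 344.7 in control fibers (quartiles 190.1 and 1121). Over all gene probe sets the medians were 565.5 and 559.1. The median member lay at the 49.7th percentile of the ETS abnormal array and at the 39.2nd of the control array, and 27 and 22 members lay above the middle of the array. The 36 probe sets that list several genes stood higher, with medians of 864.2 and 878.0, the 58.3rd and 59.1st percentiles. With these added, the median percentile of 91 probe sets was 51.9 in ETS abnormal against 53.4 in control fibers. The lower place of the family on the control array was therefore seen only when such probe sets were left out. Paired with every probe set of the background genes, a member was the brighter in 43.6% of pairs (ETS abnormal) and 45.1% (control), and any gene probe set was in 44.4% and 50.9%.

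**Figure D2:**
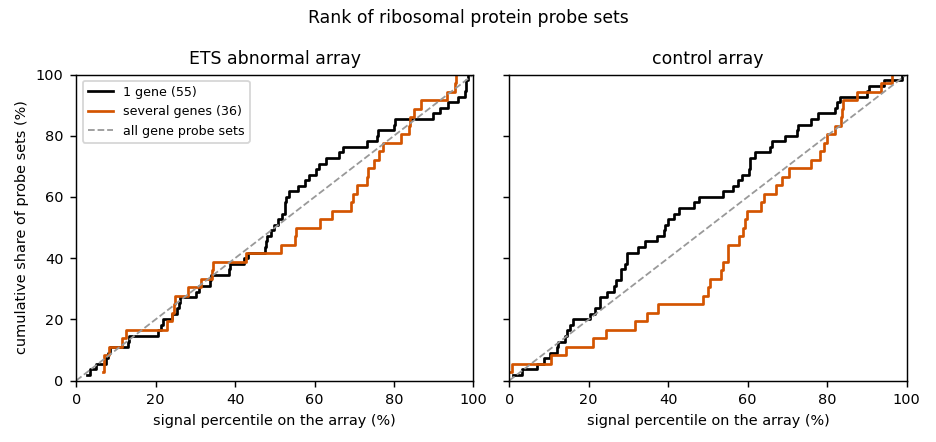
Cumulative share of ribosomal protein probe sets against their signal percentile among all gene probe sets, for probe sets of 1 gene (black, 55) and of several genes (orange, 36), with the diagonal of all gene probe sets dashed. The black line crosses the 50% level at the 49.7th percentile on the ETS abnormal array and at the 39.2nd on the control array, and the orange line at about the 58.3rd and 59.1st.

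Without the background, more members were brighter in ETS abnormal than in control fibers. Of the 55, 33 (60.0%) were brighter in ETS abnormal fibers, against 51.2% of all gene probe sets. At least 2-fold brighter there were 21 (38.2%), where 32.6% of all gene probe sets were. At least 2-fold brighter in control fibers were 12 (21.8%), against 31.1%. The other 22 (40.0%) differed by less than 2-fold, as 36.3% of all gene probe sets did. The members' median log2 ratio (ETS abnormal to control) was 0.41 (quartiles -0.82 and 1.85) and that of all gene probe sets 0.06 (quartiles -1.44 and 1.55). For the probe sets of several genes it was -0.03, with 9 of 36 at least 2-fold brighter toward each array. Together the 91 probe sets had a median of 0.14, with 33.0% and 23.1% at least 2-fold brighter. A lean toward ETS abnormal fibers was also seen in the background genes, where 68 of 119 probe sets were brighter there. At least 2-fold brighter were 52 (43.7%) in ETS abnormal and 34 (28.6%) in control fibers. For the background genes the 5th and 95th percentiles of the log2 ratio were -3.74 and 4.09, and the median was 0.77. No member lay above that range, and only Rpl14 and Rpl26l1 lay below it.

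**Figure D3:**
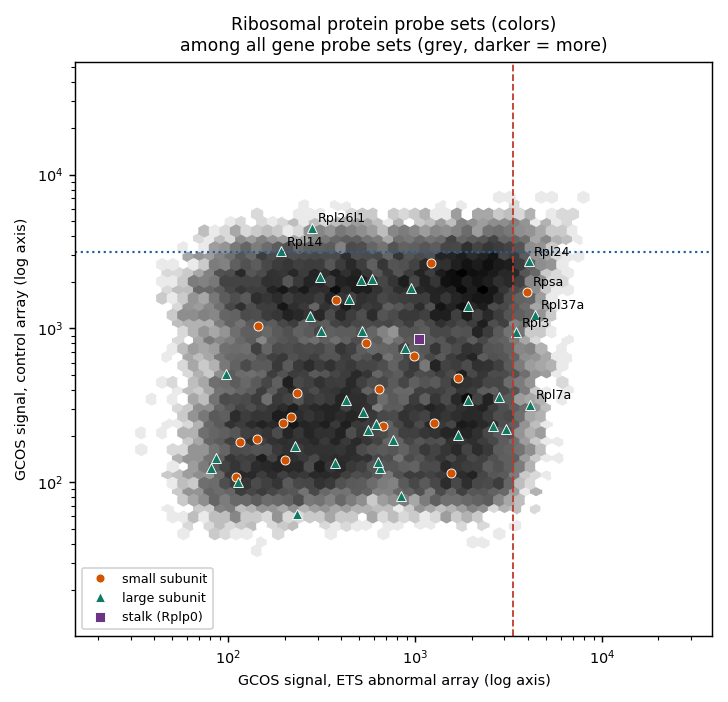
GCOS signal on the ETS abnormal array against the control array (both log axes) for the ribosomal protein probe sets, colored by subunit, over all 31042 gene probe sets in grey. Dashed and dotted lines mark the backgrounds, the 7 members beyond either line are named, and no member lies in the upper right corner beyond both. The share of all gene probe sets in that corner was not counted.

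The signals on the arrays were weakly related. Across the 55 members the Spearman correlation of the arrays was 0.24, and across all gene probe sets it was 0.14. These are correlations across probe sets, which share the array, the amplification and the probe design, and probe sets are not independent replicates. Of the members 11 lay above the middle of both arrays, 17 below it on both, 16 above it in ETS abnormal fibers alone and 11 in control fibers alone. The same split was not counted over all gene probe sets, so it is not read as a trait of the family.

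Both subunits contributed members toward each array. Of the 18 small-subunit probe sets, 5 (27.8%) were brighter by 2-fold or more in the ETS abnormal pool and 3 (16.7%) in the control pool, beside 32.6% and 31.1% of all gene probe sets, with a median log2 ratio of -0.15. Of the 36 large-subunit probe sets, the counts were 16 (44.4%) and 9 (25%), with a median of 0.51. Ratios of signals below background have no order and are given only to describe the values. Of the 10 genes taken for their deposited log2 ratio toward each array (on the probe set with the highest mean) there were 9 large-subunit genes and 1 small-subunit gene toward ETS abnormal fibers, and 8 and 2 toward control fibers. The difference between the subunits was not tested.

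Toward ETS abnormal fibers, Rpl39, a small protein that lines the exit tunnel for the growing chain, had 3065 in ETS abnormal against 222.0 in control fibers, a log2 ratio of 3.79, with both signals below background. Rpl7a had 3.69, of which its background bound allows at least 1.31-fold. Rpl7 had 2617 and 232.4 on its brighter probe set, a log2 ratio of 3.49. Rpl27a had 838.8 and 81.8 (3.36), and both of its values lay far below background.

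Rpl6 had a signal of 2812 in ETS abnormal against 357.0 in control fibers, a log2 ratio of 2.98. Rpl23, which can bind Mdm2, had 1904 and 344.7 (2.47). Rpl18 had 644.0 and 124.6 (2.37). The small-subunit protein Rps13 had 1254 and 244.0 (2.36). Rpl4, which reaches into the exit tunnel, had 762.5 and 189.5 (2.01), and Rpl28 had 232.4 and 62.6 (1.89). All of these but Rpl7a lay below background on both arrays.

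Toward control fibers, Rpl14 had a log2 ratio of -4.05 on its brighter probe set and Rpl26l1 one of -4.01. Both ETS abnormal signals were below background, so that only the bound of Rpl26l1 given above holds. Rps4y2, a copy of the small-subunit gene family S4, had 143.3 in ETS abnormal against 1033 in control fibers (-2.85). Rpl5, which with Rpl11 carries the 5S ribosomal RNA into the large subunit, had 310.6 and 2160 (-2.80). Its partner Rpl11 was brighter on the other array, with 522.8 and 284.5 (0.88). Rpl23a, where the signal recognition particle docks, had 97.0 and 506.3 (-2.38).

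Rpl30 had 273.4 in ETS abnormal against 1209 in control fibers, a log2 ratio of -2.15. Rps27l, a paralog of Rps27 and a target of p53, had 376.4 and 1539 (-2.03). Rpl22 had 514.4 and 2065 (-2.01). Rpl13a, which also takes part in silencing inflammatory transcripts, had 587.0 and 2094 (-1.83). Rpl7l1 had 441.2 and 1553 (-1.82) on the probe set with the higher mean. All but Rpl14 and Rpl26l1 lay below background on both arrays.

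The members not named so far or below lay under background on both arrays. Among them Rps16 (log2 ratio 1.82), Rps23 (1.53), Rpl34 (1.48) and Rpl27 (1.36) were brighter by 2-fold or more in ETS abnormal fibers, and Rpl41, the shortest ribosomal protein, in control fibers (-1.62). Rpl12, Rpl21, Rpl35, Rpl35a, Rps15, Rps15a, Rps28, Rps29, Rps3a and Rps9 differed by less than 2-fold, with log2 ratios from -0.94 to 0.66.

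Several proteins with well-known roles had similar signals on the arrays. Rplp0, the base of the stalk that recruits elongation factors, had 1053 in ETS abnormal against 856.3 in control fibers (log2 ratio 0.30). Rps6, the substrate of the S6 kinases, had 982.8 and 664.3 (0.57). Rps3, at the entry of the messenger RNA channel, had 109.4 and 108.5 (0.01), near the bottom of both arrays.

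Rpl26 had a signal of 1920 in ETS abnormal against 1391 in control fibers, a log2 ratio of 0.46, and its paralog Rpl26l1 of -4.01. Rpl39 had 3.79 and its paralog Rpl39l1 0.33, with 426.9 and 340.7. Rpl3l, the striated muscle paralog of Rpl3, had 228.1 and 171.2 (0.41), below the middle of both arrays. Paralogs were taken as the 5 genes whose symbol ends in l or l1 (6 probe sets), so that Rps4y2 counts among the others. Of these probe sets 1 (16.7%) was brighter by 2-fold or more in the ETS abnormal pool and 3 (50%) in the control pool. Their median log2 ratio was -0.74. Rpl7l1 is counted toward both arrays, by 1 probe set each. Over the other 43 genes (49 probe sets) the counts were 20 (40.8%) and 9 (18.4%), with a median of 0.52. The shares of all gene probe sets were 32.6% and 31.1%. Whether the paralogs differ from the rest was not tested.

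Probe sets of the same gene often disagreed. Of the 6 genes with several probe sets, Rpl3 and Rpl7 had ratios of the same sign throughout. The second probe set of Rpl3 had 559.1 in ETS abnormal against 217.2 in control fibers (1.36, beside 1.87). That of Rpl7 had 634.3 and 135.8 (2.22, beside 3.49). All readings of Rpl3 and Rpl7 were brighter in ETS abnormal fibers.

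For Rpl14 the probe sets had log2 ratios of -4.05 and 0.23, the latter from 878.7 and 750.8. For Rpl7l1 they had -1.82 and 3.06, the latter from 1696 and 203.2. For Rps24 they had -1.14, from 1210 and 2673, and 0.52, from 200.4 and 140.2. The direction for each of these genes thus depended on the probe set read.

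The 3 probe sets of Rpsa had log2 ratios of 1.19, 3.76 and -0.42. The second had 1550 in ETS abnormal against 114.3 in control fibers, the third had 142.1 and 190.6, and both have sequences that can match several transcripts. In all, 3 of 8 pairs (37.5%) had ratios of the same sign, against 50.8% of 9597 pairs over all genes with several probe sets. The median difference within a pair was 2.11 on the log2 scale for the ribosomal protein genes and 2.16 for all genes.

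**Figure D4:**
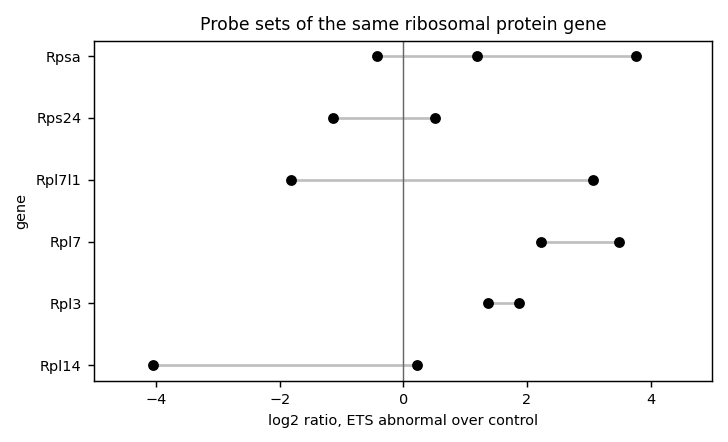
Log2 ratio (ETS abnormal to control) for each probe set (points) of the 6 ribosomal protein genes with several probe sets, joined by a grey bar. The bars of Rpl14, Rpl7l1, Rps24 and Rpsa cross 0, and those of Rpl3 and Rpl7 stay to its right.

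Other genes of translation are given by their counts. In ETS abnormal fibers 4.7% of all gene probe sets exceeded background, and in control fibers 5.95%. The counts of every list below are to be read beside these shares. Rack1, a protein of the small subunit that does not carry a ribosomal symbol, had a signal of 1373 in ETS abnormal against 135.1 in control fibers (log2 ratio 3.34), below background on both. Of 66 probe sets of initiation factors, 1 exceeded background in ETS abnormal fibers, and 3 did in control fibers. Eif4b, a cofactor of the initiation helicase, had 4298 in ETS abnormal against 1179 in control fibers (at least 1.37-fold higher). The other probe set of Eif4b had a log2 ratio of 0.02. Eif4ebp1, the mTOR-regulated repressor of cap-dependent initiation, had 2340 and 5221 (at least 1.57-fold higher in control fibers).

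Of 19 probe sets of elongation and release factors, 4 exceeded background in ETS abnormal fibers, and 2 did in control fibers. Gspt1, a release factor, had 5350 in ETS abnormal against 1727 in control fibers (at least 1.71-fold higher), and Eef1b2, an exchange factor of elongation, had 4440 and 913.0 (at least 1.42-fold higher). Eef1a2, the muscle form of the elongation factor that delivers transfer RNAs, had 302.3 and 4499 on its brighter probe set (at least 1.36-fold higher in control fibers), while its other probe set had 120.9 and 92.7.

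For making ribosomes, 4 of 56 probe sets of biogenesis factors exceeded background in the ETS abnormal pool and 2 in the control pool, with Mrto4, an assembly factor of the stalk, at 724.6 and 5663 (at least 1.71-fold higher in control fibers). Among 22 probe sets of RNA polymerase I, which makes ribosomal RNA, there was 1 on each array, with the shared subunit Polr2f at 4382 and 290.7 (at least 1.40-fold higher in ETS abnormal fibers). Among 33 of the S6 kinases and mTOR signaling the counts were 1 and 3, with Tsc1, an inhibitor of mTOR, at 752.8 and 3415 (at least 1.03-fold higher in control fibers). The other probe set of Polr2f had a log2 ratio of -0.82 and that of Tsc1 of 1.49, opposite in sign to those given, while that of Mrto4 had -0.66. None of these was called 2-fold higher on either array.

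The mitochondrial ribosome, whose proteins are also encoded in the nucleus, had 3 of 97 probe sets above background in the ETS abnormal pool and 6 in the control pool, with a median log2 ratio of 0.16. The medians were -0.31 for initiation factors, 0.00 for elongation and release factors, 0.03 for biogenesis factors, -0.86 for RNA polymerase I and 0.36 for the S6 kinases and mTOR signaling. Of 21 probe sets of other genes known for a terminal pyrimidine tract, 4 exceeded background in ETS abnormal fibers and none (0) in control fibers, with a median of 0.03, where 4.7% and 5.95% of all gene probe sets did. These 4, from Eef1b2, Eif4b, Eef2 and Eef1g, are probe sets already counted among the initiation and elongation factors. The differences between these medians, and from that of the ribosomal proteins, were not tested.

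**Figure D5:**
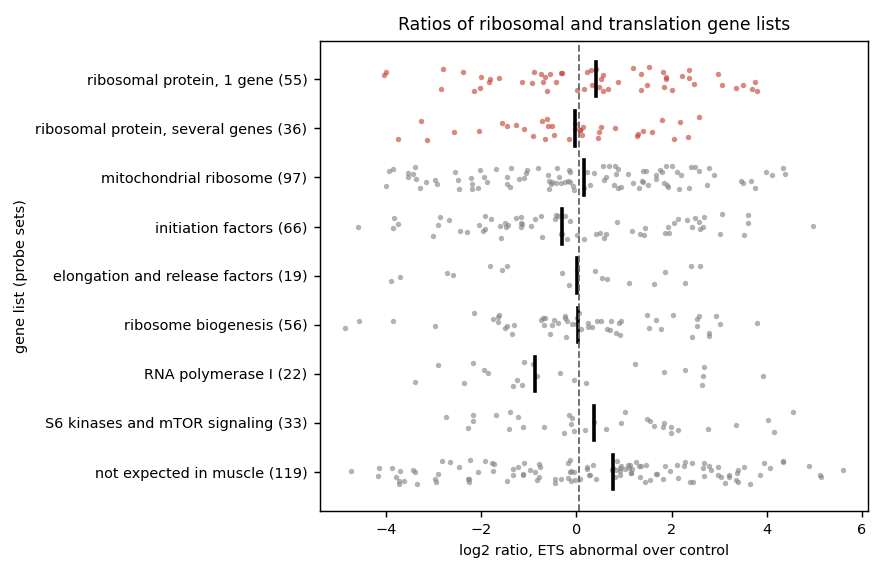
Log2 ratio (ETS abnormal to control) for each probe set (points) of the ribosomal protein genes (red) and other gene lists (grey), the size of each list in parentheses, the median of each list as a black bar and that of all gene probe sets as a dashed line. The points of every list spread over several log2 units on both sides of 0, and the medians run from -0.86 to 0.77.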

How the data were processed

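Gene expression was measured in 1 pool of ETS abnormal and 1 pool of control fiber sections, each on 1 Affymetrix rat genome array. The deposited values are intensities of 31099 probe sets per array. The authors made them with GCOS, 1.40.036 by the submitters' processing notes. It combines perfect-match and mismatch probes into a linear signal and scales the array as a whole. The 2% trimmed mean was 1000.1 on both arrays, so the values were used as deposited. The 57 control probe sets were left out and detection calls were not analysed here. The number of arrays limits the precision.

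Probe sets were named from the platform annotation (20826 with 1 gene, 436 with several, 9780 without a name). Of the 48 member genes, 46 have their gene ID in the RefSeq table, with the same symbol. The members and gene lists were chosen with earlier results of these data known. Genes named are those above background, the 10 with the largest log2 ratio toward each array, the 10 with the highest mean signal, Rplp0, Rpsa, Rps6, paralogs with their parents, genes with 3 or more probe sets and up to 4 genes per other list. Rpl11, Rps3, Rpl19, Rack1, Tnni2 and Tpm1, and the other members (so that each is accounted for), were added after their values were seen. The procedures were tested on made-up arrays. Alternatives were a scaling by the 75th percentile, quantile normalization, other backgrounds, a fold threshold of 4 and subsets of the probe sets. Protein sequences were not used here. Python 3.11.15, numpy 2.4.6, pandas 2.3.3, scipy 1.17.1 and matplotlib 3.10.9 were used.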

Additional observations from a re-analysis of the deposited data

How the results depend on the processing

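The median log2 ratio stayed above 0 under every alternative run. Its 95% binomial interval over the members, -0.42 to 1.36, includes 0. The medians of all gene probe sets (0.06) and of the background genes (0.77) lie within it too. The interval takes the probe sets as independent, which they are not, and is not read as a test. Under each scaling the median of all gene probe sets was also above 0 (from 0.01 to 0.09). The order of the arrays turned under 2 alternatives, given with their values below. Of 62 values under alternatives, 54 stayed within 1.5 times a count or within the 95% binomial interval of a median or share, which covers the spread over members and not over replicates. Part of this was fixed in advance. Both scalings keep the ranks within an array, so counts above background and signal percentiles could hardly change. A count of 0 called higher could not rise under a stricter background, a fold threshold of 4 or a subset of the probe sets. Raising the background to the 99th percentile of the same genes left 1 ribosomal protein probe set above it in the ETS abnormal pool and 0 in the control pool. With the background at their median, 20 lay above it in ETS abnormal and 22 in control fibers, more in the latter where the 95th percentile gave 5 and 2, and 12 were called higher in the ETS abnormal pool and 6 in the control pool. At a fold threshold of 4 with no background, 12 were brighter in ETS abnormal and 8 in control fibers. The shares of all gene probe sets at these other backgrounds and at this threshold were not counted. With the probe sets of several genes added, an alternative chosen after seeing the data, 21 of 91 were at least 2-fold brighter in control fibers, and the median percentile was 51.9 in ETS abnormal and 53.4 in control fibers, higher in the latter where the members alone had 49.7 and 39.2. The scalings, 1 probe set per gene and the removal of probe sets that can match several transcripts kept the median log2 ratio between 0.30 and 0.44. No paired analysis was possible because each group has 1 array and no result comes from a test.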
